A study of Mus musculus with 6 samples.

Results

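miR-22 is a microRNA with 2 mature forms, miR-22-5p (mmu-miR-22-5p) and miR-22-3p (mmu-miR-22-3p), cut from the opposite arms of the Mir22 hairpin. Both forms were found by their exact mouse names in the deposited table of all miRNAs, so the members were 2 of 1224 names, or 2 of 679 mouse names. Both passed the filter on low counts and were tested. The table came from small RNA sequencing of GC-1spg cells, an immortalised mouse testis line described as spermatogonial. Of its 6 libraries, 3 were labelled si-METTL3 (siRNA against METTL3) and 3 si-NC (control siRNA, listed as untreated), all collected 48 h after transfection. METTL3 is the enzyme that places N6-methyladenosine on RNA, and the study asked how small RNA differs between cells that differ in this mark. All libraries came from the same line, and nothing in the labels says whether they were separate cultures, so the spread behind each p-value is that of the libraries at hand and may be technical. The same siRNA sequence stands in the labels of both groups and the table holds no Mettl3 mRNA, so the knockdown was not checked here and the groups rest on the sample titles.

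A microRNA gene is transcribed as a long primary RNA, from which Drosha with DGCR8 cuts out the hairpin and Dicer then removes the loop. Of the resulting duplex, an Argonaute protein usually keeps the guide strand, and the passenger strand is mostly lost. Bases 2 to 8 of the guide, the seed, choose the mRNAs that are repressed. For miR-22 the 3p strand is the guide in mammals. miR-22-3p is broadly expressed, is abundant in heart and skeletal muscle, and has Tet2 and Hdac4 among its described targets. METTL3 has been reported in human cells to mark primary microRNAs for DGCR8, with GGAC as a favoured core motif.

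The sequences show the hairpin that gives both arms and the seeds by which the arms would pair with mRNA. They were taken from RefSeq on GRCm38.p6 (mm10), where both members matched by name, and the table's own sequences for them were identical. In the hairpin the capitals mark the mature arms, and in the arms they mark the seed.
Mir22 hairpin: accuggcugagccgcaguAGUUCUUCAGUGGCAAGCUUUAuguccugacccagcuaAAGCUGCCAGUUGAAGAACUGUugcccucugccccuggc
miR-22-5p: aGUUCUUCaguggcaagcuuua
miR-22-3p: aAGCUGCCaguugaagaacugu

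The hairpin lies at chr11:75463716-75463810 on the plus strand and is 95 bases long. miR-22-5p spans chr11:75463734-75463755 (hairpin bases 19 to 40) and miR-22-3p spans chr11:75463772-75463793 (hairpin bases 57 to 78), with 16 bases between them. Each arm is 22 bases long. The longest run of perfect complement between the arms is 9 bases. In GENCODE M21 the hairpin lies wholly in exon 2 of Mir22hg, a long non-coding RNA gene, starting 23 bases into the exon. The same exon is also used by Tlcd2-203, a transcript of the protein-coding gene Tlcd2, which overlaps Mir22hg on the same strand. A miRNA placed in this way is called exonic: its hairpin is cut from sequence that would otherwise stay in the spliced host RNA. The letters GGAC do not occur on the sense strand of the hairpin and occur once on the opposite strand, read as GTCC from hairpin base 42. Of 1005 RefSeq mouse hairpins, 24.5% hold GGAC on the sense strand and 24.4% on the other. Only the hairpins were searched, for GGAC alone, so other forms of the motif and the flanking primary RNA were not examined.

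**Figure D1:**
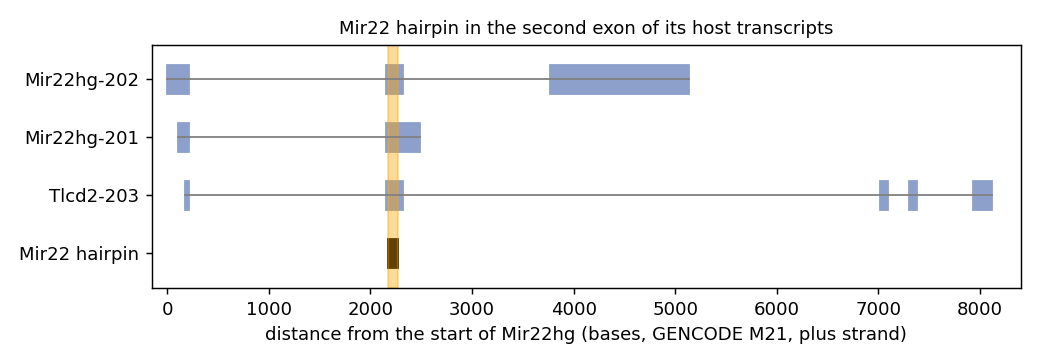
Exons (blue boxes) of the host transcripts Mir22hg-202, Mir22hg-201 and Tlcd2-203 and the Mir22 hairpin (black box, orange band), by distance in bases from the start of Mir22hg. The hairpin sits in exon 2 of each of the 3 transcripts.

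No other mouse name in RefSeq or in the table shares the seed of either arm. The only other names in the table on this hairpin are miR-22-y and miR-22-z, which carry the name of another species, and they are shown because they contain the whole of miR-22-3p (in capitals).
miR-22-y: cAAGCTGCCAGTTGAAGAACTGT
miR-22-z: AAGCTGCCAGTTGAAGAACTGTaac
miR-22-y has 1 extra base at its 5′ end, which moves the seed by 1 base, and that base is not the one the mouse hairpin has there. miR-22-z has 3 extra bases at its 3′ end, a run that differs from the bases of the mouse hairpin there, and its seed is that of miR-22-3p.

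The libraries had totals of 3998058 to 6132668 reads behind the deposited TPM, and 1047 to 1126 names were detected in each. They differed in a trace of invertebrate miRNA names. Over 12 such names, si-NC 1 held 1 read, si-NC 2 and si-NC 3 held 120 and 249, and the si-METTL3 libraries held 503, 399 and 341. The makeup of these names differed as well: bantam-y outnumbered miR-13-y in si-NC 2 (52 against 42 reads), si-NC 3 (136 against 64) and si-METTL3 1 (252 against 142), and the reverse held in si-METTL3 2 (139 against 168) and si-METTL3 3 (116 against 153), which alone held miR-277-y. The libraries were put into 3 sets by this makeup and not by the summed count, a choice made with earlier results of these data known: 1 set of si-NC 1, 1 of si-NC 2, si-NC 3 and si-METTL3 1, and 1 of the remaining si-METTL3 libraries. The makeup of si-NC 2 rests on few reads. The part of these names in the results was not tested beyond a fit with a term for these sets, given beside the results. All 7 miRNAs known from undifferentiated spermatogonia, which other dividing cells share, were listed. Their summed levels were 161757 to 165379 CPM in si-NC and 152569 to 164442 CPM in si-METTL3 over library totals. miR-21a-5p alone made up most of this sum, at means of 140456 CPM in si-NC and 141262 CPM in si-METTL3 after TMM scaling. Germ-cell miRNAs of the X-linked testis cluster were present at a low level, with all 8 listed markers in the table and summed levels of 146 to 174 CPM in si-NC and 120 to 133 CPM in si-METTL3. Of 7 muscle markers 4 were listed, with summed levels of 92.0 to 96.4 CPM in si-NC and 47.8 to 64.2 CPM in si-METTL3, and miR-133b-3p, miR-208a-3p and miR-208b-3p were not listed. Blood cell markers, all 7 listed, summed to 127 to 152 CPM in si-NC and 155 to 159 CPM in si-METTL3. Endothelial markers, both listed, summed to 78.5 to 97.8 and 64.6 to 76.3 CPM. Of 4 neuronal markers 3 were listed (209 to 235 and 254 to 302 CPM), and of the liver markers miR-122-5p alone (2.00 to 3.95 and 0.894 to 3.59 CPM). miR-22-3p is known to be abundant in muscle, and the part of these markers in its difference was not tested.

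miR-22-3p, the guide strand, was among the most abundant miRNAs of the line and was lower after METTL3 siRNA. It was counted 96166, 97369 and 94803 times in si-NC 1 to 3 and 124190, 92203 and 89065 times in si-METTL3 1 to 3. In deposited TPM these counts were 23728, 24354 and 23679.8 in si-NC and 20251, 20609.5 and 19499.5 in si-METTL3. All 3 si-METTL3 libraries lay below all 3 si-NC libraries. The raw count was highest in si-METTL3 1, which is also the deepest library. As a share of a library, miR-22-3p made up 2.39% ± 0.0376 in the control group and 2.01% ± 0.0566 after METTL3 siRNA (SD, n = 3). It ranked between 8 and 10 among all names in the si-NC libraries and between 10 and 12 in the si-METTL3 libraries. These ranks are among the names listed, which held 91.4% to 92.1% of the total of a library.

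After TMM scaling, which sets the libraries to a common level, miR-22-3p stood at 23502, 23725.5 and 22889.9 CPM in si-NC and at 20369, 21241 and 20167 CPM in si-METTL3. The means were 23372 ± 433 and 20592 ± 571 CPM (SD, n = 3), with no overlap between the groups. That is a fold of 0.881 (log2 fold -0.18 ± 0.04 SE, 95% interval -0.26 to -0.10, adjusted p 7.5e-04, two-sided quasi-likelihood test of edgeR, adjusted by Benjamini-Hochberg over 622 names). Of all 622 tested names, 29.3% passed the same threshold, 11.6% of all tested names were called lower in si-METTL3, and 41.2% had groups that did not overlap. Among the 71 names of at least 1000 CPM, where the spread is small, 63.4% passed, and 29.6% of the 71 were called lower. A call is therefore common at this abundance. The size of the change was modest too: 43.4% of all tested names and 11.5% of the 182 called names changed by less. By p it ranked 81 of 622.

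miR-22-3p fell by more on the scale of the authors' values. In the authors' deposited table its log2 fold is -0.25 with an FDR of 4.5e-04, and miR-22-5p has -0.23 with an FDR of 0.515. The scaling makes that difference: TMM raised the median log2 fold of all tested names from -0.06 with library totals to 0.0054. A change shared by all miRNAs would not show on either scale. With library totals alone the edgeR log2 fold of miR-22-3p was -0.25. Neither arm is among the 50 names of the authors' shorter table of differently expressed miRNAs, in which the smallest absolute log2 fold is 1.01.

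miR-22-5p, the passenger strand, was rare. It was counted 164, 152 and 137 times in si-NC 1 to 3 and 200, 134 and 152 times in si-METTL3 1 to 3. In deposited TPM it stood at 40.5, 38.0 and 34.2 in si-NC and at 32.6, 30.0 and 33.3 in si-METTL3, without overlap. Lack of overlap was common: 41.2% of the 622 tested names showed it after TMM scaling, and the share in TPM was not computed. With TMM scaling the levels were 40.1, 37.0 and 33.1 CPM in si-NC and 32.8, 30.9 and 34.4 CPM in si-METTL3. On that scale the groups overlapped, since si-METTL3 3 lay above si-NC 3. The means were 36.7 ± 3.51 and 32.7 ± 1.78 CPM (SD, n = 3).

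The log2 fold of miR-22-5p was -0.17 ± 0.12 (SE, 95% interval -0.41 to 0.08), which did not pass (adjusted p 0.336, edgeR). Its point value was close to that of miR-22-3p, and its wider interval held both 0 and the value of miR-22-3p. Counting error alone, over library totals, gave a log2 ratio of -0.23 with an interval of -0.42 to -0.05 for miR-22-5p (453 against 486 reads) and of -0.25 with an interval of -0.26 to -0.24 for miR-22-3p (288338 against 305458 reads). These intervals cover counting error only. Of the 118 names between 20 and 60 CPM, 27.1% passed, and the median SE there was 0.12.

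**Figure D2:**
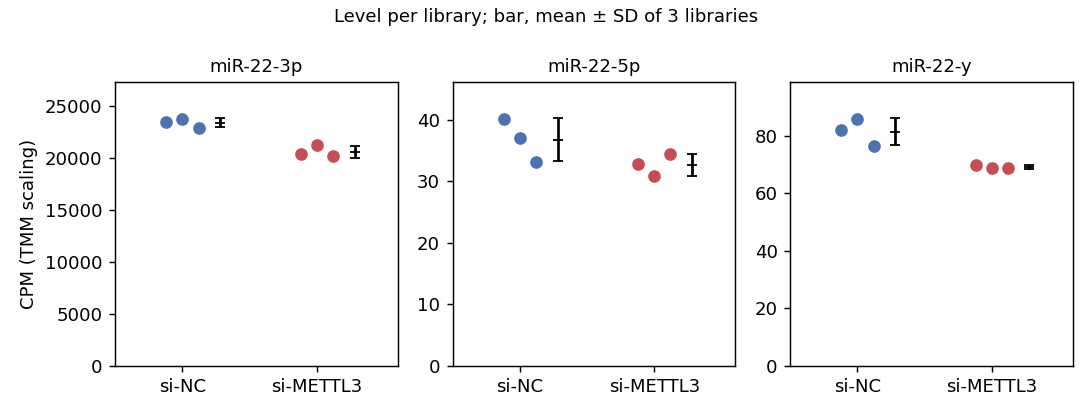
TMM-scaled CPM per library (points) of miR-22-3p, miR-22-5p and miR-22-y, with the mean and SD of the 3 libraries of a group (black); each axis starts at 0. The si-METTL3 points of miR-22-3p lie between 20167 and 21241 CPM, below all si-NC points, while those of miR-22-5p overlap with si-NC.

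**Figure D3:**
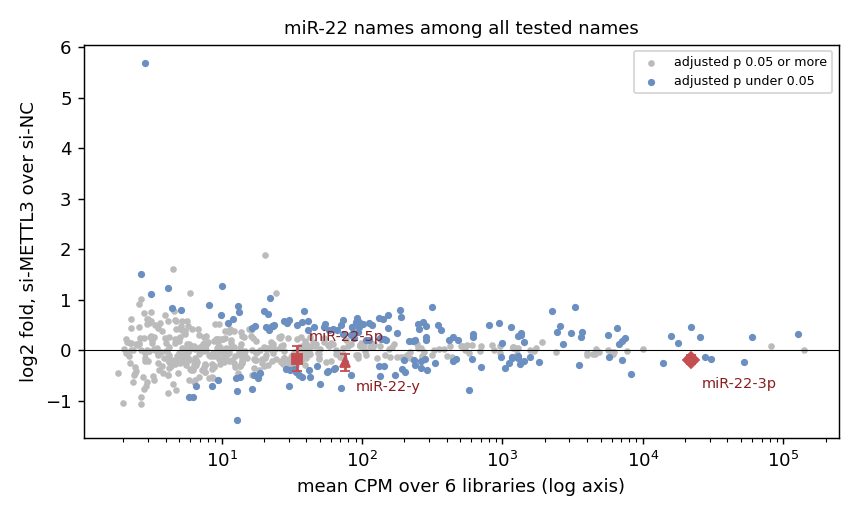
Log2 fold of si-METTL3 over si-NC against mean CPM (log axis) for the 622 tested names, with the miR-22 names in red and their 95% intervals. miR-22-3p lies at -0.18 far to the right with a narrow interval, and miR-22-5p lies at -0.17 with an interval that crosses 0.

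miR-22 was among the most one-sided of the hairpins tested, and its arm ratio did not differ detectably between the groups. miR-22-5p made up 0.170% (Wilson 95% interval 0.146 to 0.198), 0.156% (0.133 to 0.183) and 0.144% (0.122 to 0.171) of the reads of both arms in si-NC 1 to 3. In si-METTL3 1 to 3 it made up 0.161% (0.140 to 0.185), 0.145% (0.123 to 0.172) and 0.170% (0.145 to 0.200). The highest and the lowest library of each group were nearly the same, so the ranges lay on each other. There were 639.7 ± 52.8 reads of miR-22-3p per read of miR-22-5p in the controls and 632 ± 51.9 in si-METTL3 (SD, n = 3). The log2 ratio of 5p over 3p was -9.32 ± 0.12 in si-NC and -9.30 ± 0.12 in si-METTL3.

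The change in the log2 ratio was 0.02 ± 0.13 (SE, 95% interval -0.23 to 0.27, adjusted p 0.949, edgeR's test of an arm by group term with each library as a block). The exact two-sided permutation test over libraries gave p 0.7, where 0.1 is the smallest p that 3 against 3 libraries allow. The interval does not show that the ratio was equal, only that a shift beyond its ends was not seen. Of the 118 mouse hairpins tested in this way, 23 (19.5%) passed, 13 toward the 5p arm and 10 toward the 3p arm. The change of miR-22 was larger than that of 6 of the 118 hairpins, and the median absolute change was 0.24. How well each sequence is captured in library preparation was not measured, so these are ratios of reads.

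By the mean log2 ratio miR-22 had rank 3 toward the 3p arm among the 118 hairpins, after miR-29a (-10.87) and miR-23a (-10.35), and rank 7 when bias toward either arm was counted. These 118 had a mean of at least 10 counts in the lesser arm. They came from 192 mouse hairpins whose arms were both listed under the same name up to the -5p or -3p ending. Hairpins with a rarer lesser arm can be more one-sided and were not ranked. Arms whose names differ further, such as let-7a-5p and let-7a-1-3p, were not paired and not ranked either, so the ranks depend on both limits. The next hairpins were miR-27b (-9.22), miR-143 (-7.58) and miR-501 (-7.43). The median absolute log2 ratio was 3.47, and in 44 hairpins the 3p arm was the more abundant. The passenger strands of miR-29a and miR-23a had means of 14.8 and 12.2 counts against 156 for miR-22-5p, so their place before miR-22 is less certain. None of these 6 hairpins changed its ratio past the threshold (adjusted p 0.110 to 0.976, edgeR), with miR-143 nearest to it (0.44 ± 0.20 SE).

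**Figure D4:**
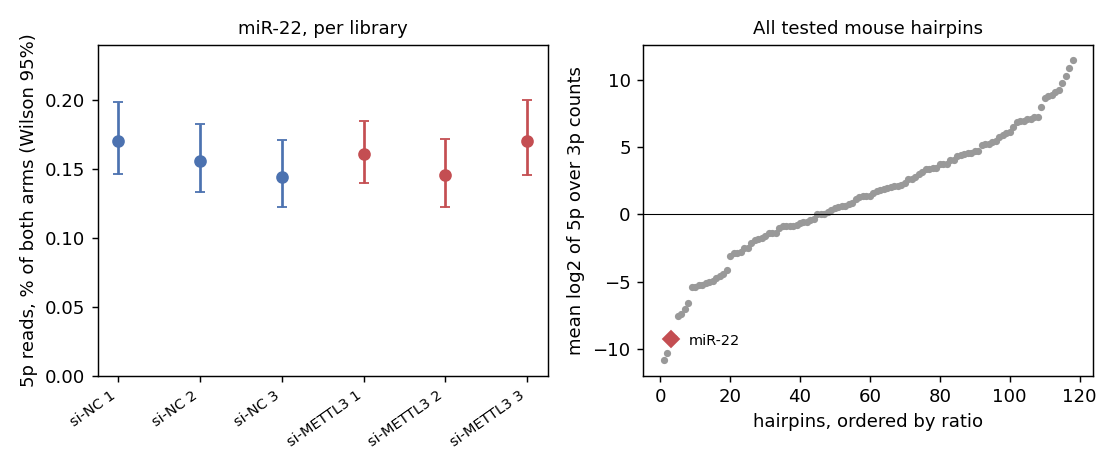
Left, miR-22-5p reads as a percentage of the reads of both arms in each library, with Wilson 95% intervals. Right, the mean log2 ratio of 5p over 3p counts of the 118 tested mouse hairpins in order, with miR-22 in red at -9.30. The 6 shares lie between 0.144% and 0.170% with overlapping intervals.

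The variant miR-22-y was lower with miR-22-3p. It was counted 336, 352 and 317 times in si-NC 1 to 3 and 426, 299 and 304 times in si-METTL3 1 to 3, which gave 82.1, 85.8 and 76.5 CPM and 69.9, 68.9 and 68.8 CPM with TMM scaling. The groups did not overlap. Its log2 fold was -0.23 ± 0.08 (SE, adjusted p 0.030, edgeR). The call held without si-NC 3. It was lost in each of the other 5 refits without 1 library (log2 fold -0.24 to -0.20, adjusted p 0.052 to 0.112), without a filter (-0.23, 0.075) and with the term for library sets (-0.22, 0.298), with folds of about the same size. Per 1000 reads of miR-22-3p there were 3.48 ± 0.136 reads of miR-22-y in the controls and 3.36 ± 0.104 in si-METTL3 (SD, n = 3). The log2 of that ratio differed by -0.05 (exact two-sided permutation p 0.4, adjusted p 0.7 over the 2 ratios). miR-22-y was thus 2.17 times as abundant as miR-22-5p over the 6 libraries, although its name is of another species. miR-22-z was rare, with 12, 2 and 6 reads in si-NC and 9, 9 and 6 in si-METTL3, and did not pass the filter.

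Leaving out any 1 library left the call of miR-22-3p past the threshold (log2 fold -0.21 to -0.17, adjusted p 3.6e-04 to 0.0043, edgeR). The fit with a term for the library sets compares only si-METTL3 1 with si-NC 2 and 3, because the other sets hold 1 group each. It gave -0.19 ± 0.06 (adjusted p 0.0071) for miR-22-3p and -0.10 ± 0.18 (adjusted p 0.779) for miR-22-5p. For miR-22-5p no refit without a library passed, and its log2 fold moved from -0.10 without si-NC 1 to -0.24 without si-NC 3.

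**Figure D5:**
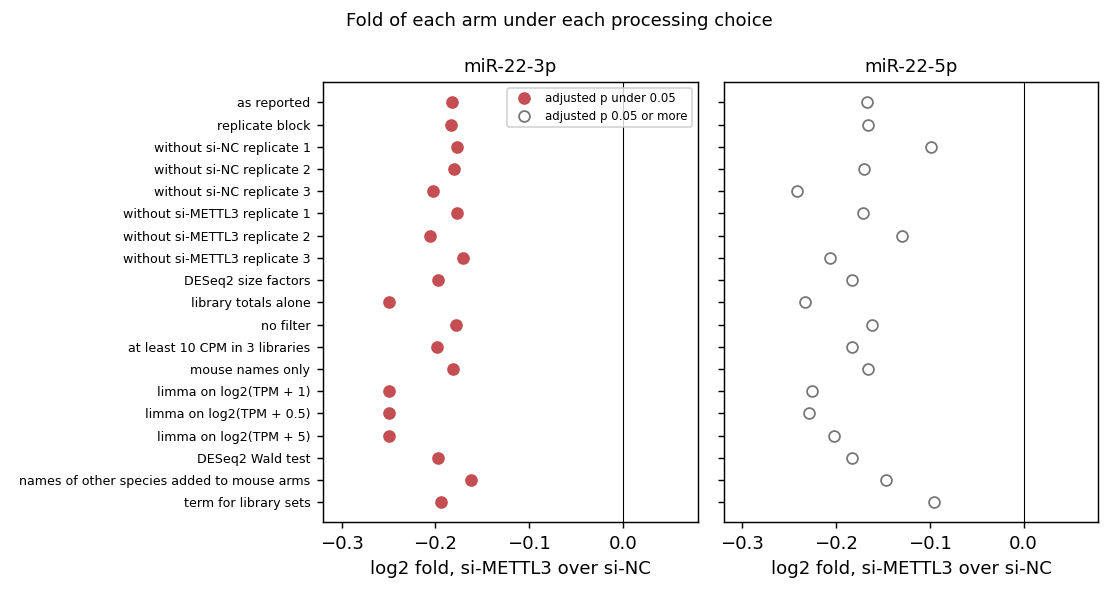
Log2 fold of si-METTL3 over si-NC for each arm (columns) as reported and under 18 alternatives (lines); filled points have an adjusted p under 0.05. All points of miR-22-3p lie between -0.25 and -0.16 and are filled, and all points of miR-22-5p lie between -0.24 and -0.10 and are open.

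In order of level, miR-22-3p had rank 9 of the 622 tested names. The mouse names next above it were miR-24-3p (30526 CPM, mean of 6 libraries) and miR-30a-5p (27719.5 CPM), and those next below were miR-125a-5p (21923 CPM) and let-7f-5p (21847 CPM). miR-24-3p, miR-30a-5p and let-7f-5p fell as well, with log2 folds of -0.17 ± 0.04, -0.14 ± 0.04 and -0.15 ± 0.05 (SE, adjusted p 0.0014, 0.0074 and 0.012, edgeR). let-7f-5p no longer passed without si-NC 2 (-0.12, adjusted p 0.082). miR-125a-5p, a lin-4 family member, rose by 0.46 ± 0.05 (adjusted p 7.0e-08). miR-22-3p stood above miR-125a-5p in si-NC (23372 ± 433 against 18469 ± 1317 CPM) and below it in si-METTL3 (20592 ± 571 against 25378 ± 1141 CPM, SD, n = 3). Its level did not differ from that of let-7f-5p beyond their spread in either group (23018 ± 1708 and 20675 ± 488 CPM). These levels are CPM values of sequences of like length.

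miR-22-5p lay at rank 267, between miR-33-5p and miR-222-5p above and miR-455-3p and miR-340-3p below, all 5 within 34.6 to 35.6 CPM. Of these, miR-222-5p fell (log2 fold -0.50 ± 0.12 SE, adjusted p 0.0024, edgeR) and miR-455-3p rose (0.50 ± 0.12, adjusted p 0.0023) at the same depth as miR-22-5p. With the term for library sets miR-222-5p no longer passed (-0.35, adjusted p 0.167). miR-33-5p (0.02 ± 0.12, adjusted p 0.921) and miR-340-3p (0.23 ± 0.12, adjusted p 0.169) did not pass.

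The mouse names whose log2 CPM followed miR-22-3p most closely over the 6 libraries, among 170 names of at least 50 CPM, were miR-3535 (Pearson r 0.987), miR-30a-5p (0.980) and miR-26b-5p (0.974). These points share their libraries and their scaling, and the group difference is part of the likeness. miR-3535 fell from 201 ± 14.1 to 142 ± 5.64 CPM (SD, n = 3, log2 fold -0.49 ± 0.07 SE, adjusted p 3.9e-06, edgeR). The level of miR-26b-5p went from 1237 ± 27.5 to 1113 ± 4.07 CPM, which is -0.15 ± 0.04 as a log2 fold (adjusted p 0.0074, and 0.105 with the term for library sets). For miR-22-5p the closest names were miR-186-5p (r 0.954), miR-20a-3p (0.923) and let-7f-5p (0.870). The levels of the miR-22 arms had an r of 0.635 with each other, and miR-22-3p had an r of 0.941 with miR-22-y.

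miR-22 was set beside miRNAs that share its kind of locus, its neighbourhood or a described target. RefSeq gave a locus for 560 of the 679 mouse names, and 136 of them lay wholly in exons of other genes in GENCODE M21, miR-22 included. Of the other 134, 86 were tested: 15 rose and 12 fell (31.4% called, against 29.3% of all names), with a median log2 fold of -0.03 against 0.0054. With library totals alone 11 rose and 17 fell. The most abundant exonic names besides miR-22-3p were miR-21a-5p in Vmp1 (log2 fold 0.0082 ± 0.04 SE, adjusted p 0.922, edgeR), miR-27b-3p (0.33 ± 0.04, adjusted p 7.1e-07), miR-125a-5p, let-7a-5p (-0.26 ± 0.05, adjusted p 3.2e-04) and let-7b-5p (0.12 ± 0.04, adjusted p 0.035). The sign of miR-21a-5p turned with the scaling, and let-7b-5p no longer passed in 13 of 18 alternatives, among them library totals (adjusted p 0.361) and DESeq2 size factors (0.070). Names were placed by the loci that RefSeq gave, and for let-7a-5p the only locus given was on chromosome 13. Exonic names by this placing moved in both directions, and miR-22-3p was 1 of 13 that fell.

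Mir132 and Mir212, miRNA genes upstream on the same chromosome, lie 290.0 kb from Mir22 and on the same strand. miR-132 is known as an activity-induced miRNA of neurons, and miR-212 comes from the same transcript. Their 4 arms were rare, with 131 to 474 reads over all libraries, and none passed in edgeR's test over all names. miR-132-3p was nearest, with 57, 79 and 100 reads in si-NC and 78, 68 and 54 in si-METTL3 (log2 fold -0.50 ± 0.20 SE, adjusted p 0.059). It passed in 11 of 18 alternatives, among them library totals alone (adjusted p 0.030). Without each library in turn its log2 fold ranged from -0.68 without si-NC 1 (adjusted p 0.0025) to -0.30 without si-NC 3 (0.362). It passed without si-NC 1 and without si-METTL3 2 (-0.61, adjusted p 0.040), and did not pass in the other 4 refits (0.106 to 0.362).

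Tet2 encodes an enzyme that oxidises 5-methylcytosine in DNA. Of 9 miRNAs described as repressing it, 8 were tested, and 3 rose and none fell (37.5% called, against 29.3% of all tested names, or 17.7% counting those called higher, and a median log2 fold of 0.11 against 0.0054). With library totals 3 rose and 1, miR-29a-3p, fell (-0.14, adjusted p 0.0044), as it did with a filter of 10 CPM (-0.09, adjusted p 0.048) and with limma at each of 3 pseudocounts (-0.14, adjusted p 0.0047 to 0.0048). Of its most abundant members, miR-26a-5p rose by 0.29 ± 0.04 (SE, adjusted p 2.0e-06, edgeR) and miR-125b-5p by 0.26 ± 0.04 (adjusted p 1.9e-05), while miR-29a-3p (-0.07 ± 0.04, adjusted p 0.163 with TMM) and miR-7a-5p (0.17 ± 0.11, adjusted p 0.314) did not pass. The level of Tet2 was not measured in these libraries.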

How the data were processed

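The 6 libraries and their groups were taken from the sample titles. The submitters' processing notes name the build mm10 and the tools RSEM, StringTie, Bowtie2 and fastp, without roles or versions. Per the file headers, the authors deposited a count and a TPM per library and name. Each TPM equals the count over 1 total per library, so these totals served as library sizes (3 counts stand for 0.489 to 0.75 CPM). Per the file headers, the deposited log2 fold change, p-value and FDR are the authors' own. Of the full table, 2 lines had been emptied and are not analysed here.

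Counts were tested with edgeR 4.0.16 (TMM, filterByExpr, robust quasi-likelihood, 4 residual degrees of freedom, common coefficient of biological variation 0.0583, threshold 0.05). Arm ratios were tested over hairpins with a mean of at least 10 counts in the lesser arm. Arms were paired by a shared name up to the ending, and log2 ratios used a pseudocount of 0.5. limma 3.58.1 and DESeq2 1.42.0 gave alternatives. Both models were tested on simulated data. Wilson intervals are at 95%. The members and lists were chosen with earlier results of these data known. A further list of miRNAs is not reported here. The library sets follow the makeup of the invertebrate names, seen in the data. Named miRNAs are the members, names on their hairpin, neighbours by level and by arm ratio, the 3 closest in pattern, and the most abundant of each list.

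Samples with the same number share only that number.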

Additional observations from a re-analysis of the deposited data

How the results depend on the processing

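The level of miR-22-3p kept its direction and its call in all 18 alternatives (log2 fold -0.25 to -0.16, adjusted p 2.5e-06 to 0.0071), and miR-22-5p stayed below 0 without a call (-0.24 to -0.096, adjusted p 0.142 to 0.779). Without each library in turn the values were -0.21 to -0.17 for miR-22-3p and -0.24 to -0.098 for miR-22-5p. The change in the arm ratio was near 0 and turned to -0.038 without si-NC 3 and to -0.028 without si-METTL3 3 (range without each library -0.038 to 0.081, adjusted p 0.688 or more in all 11 alternatives). Names called numbered 182 here and 122 to 190 in the alternatives (153 to 171 without each library). Arm ratios called numbered 23 here, 16 to 23 without each library and 13 with limma on the log2 ratio, and the cause was not tested. Same-numbered libraries did not deviate together (r -0.36, -0.081 and -0.29) and none correlated best with its own number, and with the replicate block the log2 folds were -0.18 for miR-22-3p (adjusted p 5.7e-04) and -0.17 for miR-22-5p (0.399), the change in the arm ratio was 0.013 (0.978), and 176 names were called. The log2 fold of miR-21a-5p, which did not pass, turned to -0.014 without si-NC 3 and -0.036 without si-METTL3 3 (range without each library -0.036 to 0.047), to -0.0067 with DESeq2 size factors and -0.0067 with DESeq2's Wald test, to -0.0080 with a filter of 10 CPM, to -0.059 with library totals alone, to -0.060 with limma at each of the pseudocounts 1, 0.5 and 5, and to -0.063 with the term for library sets. That of miR-33-5p, likewise not called, turned to -0.044 without si-METTL3 3 (range without each library -0.044 to 0.078), to -0.044 with library totals alone, to -0.046, -0.047 and -0.041 with limma at the pseudocounts 1, 0.5 and 5, and to -0.012 with the term for library sets. That of miR-7a-5p turned to -0.017 with that term. miR-22-5p rests on 134 to 200 reads a library, against 89065 to 124190 for miR-22-3p.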

Other observations

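In 114 of the 118 mouse hairpins of the arm-ratio test, both arms were also tested singly between the groups. Both arms had log2 folds below 0 in 26 of them, miR-22 included, both above 0 in 42, and the arms differed in sign in 46. miR-24-3p, let-7a-5p and let-7f-5p fell past the threshold but were not paired with a lesser arm, so they are not counted here. In 15 of the 114 hairpins the more abundant arm fell past the threshold (edgeR's quasi-likelihood test over all names). The lesser arm also fell past it in 3 of these, miR-221, miR-222 and miR-1839, rose past it in 2, and did not pass in 10, of which 7, among them miR-22, had a lesser arm below 0. Across all 114, both arms passed in the same direction in 13 hairpins, 10 of them higher and 3 lower, and in opposite directions in 4.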
